A study of Mus musculus with 6 samples.

Results

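The 10 imprinted growth-regulating genes described here are *H19*, *Meg3*, *Rian*, *Mirg*, *Grb10*, *Dlk1*, *Peg3*, *Plagl1*, *Mest* and *Ndn*. They were picked by gene symbol from a table of 27506 genes, and all 10 were among the 19330 genes that passed the filter on low counts and were tested. Expression was measured by RNA-seq in dental pulp of the mandibular first molar at PN3.5 (3.5 days after birth) in C57BL/6 mice, with 3 libraries from *Ror2fl/fl* control mice and 3 from *Osr2-Cre;Ror2fl/fl* mice (here called *Ror2* mutant). Ror2 is a receptor of non-canonical Wnt signaling, and the study asked what its loss does during tooth root development. Both groups carry floxed *Ror2* alleles and the genotype label of the controls names no Cre. The sample titles also carry letter codes, which are WW, OW and OW for the control libraries in numbered order and OR for every mutant library. What these codes stand for is not stated, and their part in differences among the control libraries was not tested. Cre driven by *Osr2* is active in the dental mesenchyme and alveolar bone but not in the dental epithelium, so epithelial cells of the mutants keep *Ror2*. The mutants came from *Osr2-Cre;Ror2fl/+* sires and *Ror2fl/fl* dams. How many animals went into a library is not stated, so the p-values measure the spread between these libraries.

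Imprinted genes are expressed from only the maternal or only the paternal copy, because DNA methylation laid down in the germ line marks the copies differently. Many of them act on fetal and early postnatal growth, and paternally expressed genes often promote growth while maternally expressed genes often restrain it. Among the 10 genes, *Dlk1*, *Peg3*, *Plagl1*, *Mest* and *Ndn* are expressed from the paternal copy and encode proteins. *H19*, *Meg3*, *Rian* and *Mirg* are noncoding RNAs of the maternal copy, and *Grb10* encodes an adaptor protein that is maternally expressed outside neurons. Many of these genes are part of a set that is high in the growing newborn and falls with age. The counts sum both copies of each gene, so a change in the active copy and expression from the silent copy cannot be told apart in these data.

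The noncoding members are also hosts of microRNAs, which were not measured by these libraries. By RefSeq positions on GRCm38.p6, 39 mature microRNAs lie within 5 of the 10 genes on the same strand, with 2 in *H19*, 3 in *Meg3*, 6 in *Rian*, 26 in *Mirg* (18 intronic and 8 exonic) and 2 in *Mest*. The miR-675, miR-770 and miR-335 pairs are shown because *H19*, *Meg3* and *Mest* had the 3 kinds of result found (overlap, higher without passing the test, and lower), with the seed (bases 2 to 8) in capitals.
mmu-miR-675-5p, exon of *H19*, chr7:142577112-142577133, minus strand: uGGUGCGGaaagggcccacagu
mmu-miR-675-3p, exon of *H19*, chr7:142577078-142577099, minus strand: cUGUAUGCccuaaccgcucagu
mmu-miR-770-5p, exon of *Meg3*, chr12:109563710-109563731, plus strand: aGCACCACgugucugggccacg
mmu-miR-770-3p, exon of *Meg3*, chr12:109563744-109563765, plus strand: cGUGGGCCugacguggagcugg
mmu-miR-335-5p, intron of *Mest*, chr6:30741314-30741336, plus strand: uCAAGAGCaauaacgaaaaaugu
mmu-miR-335-3p, intron of *Mest*, chr6:30741354-30741375, plus strand: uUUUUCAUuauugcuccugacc
These 6 have 6 different seeds. Among all 39, only miR-453 and miR-496a-5p of *Mirg* shared a seed.

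RefSeq promoter windows (250 bases before to 50 after a gene start, GRCm38.p6) were found for 9 of the 10 genes, 13 windows in all. The windows of *Peg3*, *Mest* and *Plagl1*, which were lower in the mutant libraries, and of *Meg3*, which was not, are printed because the methylation that distinguishes parental copies falls on CpG, shown in capitals.
*Peg3*, chr7:6730370-6730669, minus strand: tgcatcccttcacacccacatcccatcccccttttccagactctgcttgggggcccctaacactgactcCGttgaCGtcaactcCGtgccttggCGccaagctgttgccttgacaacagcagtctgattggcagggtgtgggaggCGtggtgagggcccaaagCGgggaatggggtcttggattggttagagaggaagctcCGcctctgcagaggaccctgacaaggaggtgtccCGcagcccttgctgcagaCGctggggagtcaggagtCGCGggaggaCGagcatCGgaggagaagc
*Mest*, chr6:30737800-30738099, plus strand: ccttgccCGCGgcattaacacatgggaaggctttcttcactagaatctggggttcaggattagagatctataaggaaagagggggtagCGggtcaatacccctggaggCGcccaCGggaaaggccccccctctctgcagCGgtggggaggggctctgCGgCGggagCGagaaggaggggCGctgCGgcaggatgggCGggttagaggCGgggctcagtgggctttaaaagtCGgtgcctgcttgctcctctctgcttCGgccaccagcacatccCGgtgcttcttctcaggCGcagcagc
*Plagl1*, chr10:13090582-13090881, plus strand: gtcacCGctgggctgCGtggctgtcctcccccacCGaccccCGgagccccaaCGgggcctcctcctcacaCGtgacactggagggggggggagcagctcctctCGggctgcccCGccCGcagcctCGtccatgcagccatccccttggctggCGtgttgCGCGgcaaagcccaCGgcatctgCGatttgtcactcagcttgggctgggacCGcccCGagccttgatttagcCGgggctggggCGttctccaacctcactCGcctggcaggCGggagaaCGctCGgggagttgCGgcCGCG
*Meg3*, chr12:109540746-109541045, plus strand: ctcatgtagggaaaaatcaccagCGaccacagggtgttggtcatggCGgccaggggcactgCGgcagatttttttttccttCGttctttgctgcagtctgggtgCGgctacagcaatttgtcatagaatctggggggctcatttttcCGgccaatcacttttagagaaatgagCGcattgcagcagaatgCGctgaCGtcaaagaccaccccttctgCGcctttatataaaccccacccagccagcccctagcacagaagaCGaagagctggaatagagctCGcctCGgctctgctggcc
The printed windows held 13 CpG for *Peg3*, 17 for *Mest*, 26 for *Plagl1* and 13 for *Meg3*, against a median of 7 over all 32851 windows. *Mest* and *Meg3* also had windows with fewer, of 8 and 1 CpG. *Grb10* had the most, 45 in 1 of its windows and 9 in the other, and the window of *Rian* had 0. The letters GGGGCCCC, which Plagl1 protein is known to bind, were found in the window of 1 of the 9 genes, *Peg3*, and in 1.08% of all windows. GCCATNTT, the core bound by YY1, was in the window of 0 of the 9 genes and in 6.05% of all windows. TATAAA was in the first window of *Meg3*, where it matched on both strands at overlapping positions, and in 13.6% of all windows. Both strands were searched for each motif, and a match is a description of these letters only.

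The libraries held 56134770 to 62628940 estimated counts, and a member had between 48 counts (*Mirg*) and 27008 counts (*H19*) in a library. The targeted gene, *Ror2*, was at 37.1 ± 1.02 CPM (counts relative to the library total after TMM scaling, mean ± SD, n = 3) in controls and 27.4 ± 0.961 CPM in mutant libraries, a difference of -0.43 on the log2 scale (adjusted p = 0.013, SE 0.08), which did not pass without control library 2 or 3 (highest adjusted p = 0.075). Reads over all exons were counted, so transcripts with and without the floxed part are summed. The enamel matrix gene *Amelx*, made by ameloblasts of the dental epithelium, took 9.15%, 9.36% and 9.97% of all counts in controls and 15.2%, 12.6% and 13.7% in mutant libraries, although the tissue is labeled dental pulp. For *Amelx* every mutant library was above every control, while the difference did not pass the test (log2 fold change 0.56, adjusted p = 0.085). Its part in the results on the 10 genes was not tested. The enamel matrix gene *Enam* went the other way, with every mutant library below every control. It went from 19870 ± 1467 to 14300 ± 3791 CPM without passing (log2 fold change -0.47, adjusted p = 0.16). *Ambn*, also an enamel matrix gene, overlapped between the groups (64770 ± 3896 to 60040 ± 13290 CPM, -0.11, adjusted p = 0.74). The summed level of 9 dental epithelium markers was 171400 to 191800 CPM in controls and 185000 to 255300 CPM in mutant libraries, and that of 6 odontoblast markers was 14550 to 46330 and 12860 to 35560 CPM. Mutant library 2 stood apart, holding the highest value of the 6 libraries for 46.2% of 584 lincRNAs and 54.2% of 319 processed transcripts tested, against 27.2% of 14877 protein-coding genes. *Xist*, the RNA of the inactive X chromosome of females, was at 760 CPM in control library 2 and 617 CPM in mutant library 2 and at most 2.68 CPM in the others. Differences between the groups in cell makeup and in RNA per cell cannot be told apart in these bulk samples, and a batch that coincided with genotype cannot be told apart from it.

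Of the 10 genes, 6 were lower in *Ror2* mutant than in control libraries, 0 were higher and 4 did not pass an adjusted p of 0.05 (edgeR's quasi-likelihood test, adjusted over all genes tested). At an unadjusted p under 0.05 *Meg3* was also higher, and by DESeq2 and limma voom 0 of the 10 were higher. Over all 19330 genes, 9.84% were called lower and 10.4% higher. The 6 were *Peg3*, *Mest*, *Ndn*, *Dlk1*, *Plagl1* and *Grb10*, that is, all 5 genes of the paternal copy and 1 of the 5 of the maternal copy. They were also all 6 of the protein-coding genes, so the expressed copy and the coding class cannot be told apart except by *Grb10*, which is maternal and coding. In the same 6 genes every mutant library was below every control library, and 22.1% of all genes tested had this pattern. *Meg3* alone had every mutant library above every control library, as did 22.6% of all genes, and the groups of *H19*, *Rian* and *Mirg* overlapped. Because the 10 genes were chosen with earlier results of these data known, their counts and medians beside those of all genes are descriptions only. The median log2 fold change of the 10 genes was -0.56, against 0.01 over all genes tested. It was -0.70 over the 5 paternal genes (from -0.98 to -0.63) and -0.04 over the 5 maternal genes (from -0.49 to 1.09).

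**Figure D1:**
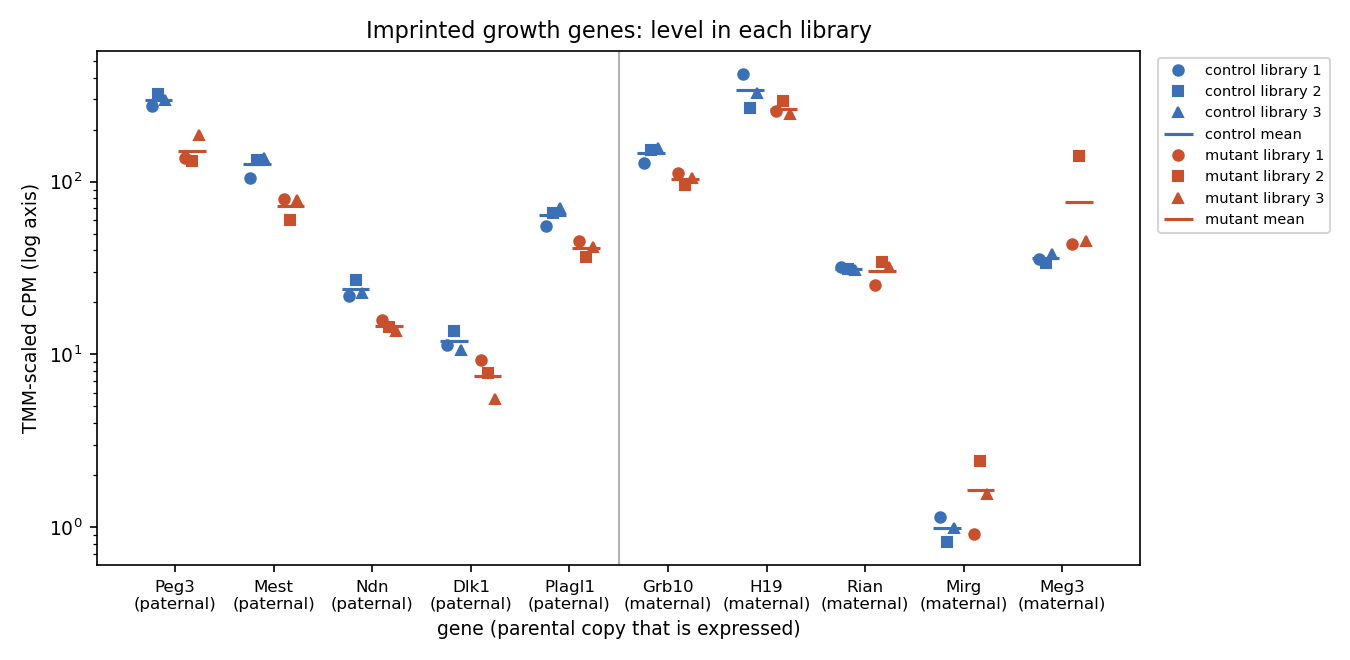
Level of each gene in each library, in TMM-scaled CPM on a log axis. Points are libraries, bars are group means, and the genes are split by the parental copy that is expressed. The mutant points lie below all control points for the 5 paternal genes and for *Grb10*, and *Meg3* has 1 mutant library at 141 CPM, far above its other 5.

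*Peg3* encodes a large zinc finger protein that affects growth and maternal behavior. It maps to mm10 chromosome 7, minus strand, at 6703892 to 6730431 (ENSMUSG00000002265.16). It was at 273, 321 and 299 CPM in control libraries 1, 2 and 3 and at 137, 131 and 185 CPM in mutant libraries 1, 2 and 3. All 3 mutant libraries were below the lowest control, and mutant library 3 was the nearest to it. This was 49.2% lower, the largest change of the 6, with a log2 fold change of -0.98 (standard error 0.15, 95% confidence interval -1.33 to -0.62, adjusted p = 0.0061). It stayed past the threshold in all 18 alternative analyses.

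*Mest* encodes a protein with an alpha/beta hydrolase fold that is abundant in embryonic mesoderm. It lies on the plus strand of chromosome 6, from 30723547 to 30748465 (ENSMUSG00000051855.15). Its level was 106, 134 and 138 CPM in controls and 79.3, 59.9 and 78.4 CPM in mutant libraries, with mutant library 2 the lowest and control library 1 the nearest to the mutants. The log2 fold change was -0.79 (standard error 0.15, 95% confidence interval -1.14 to -0.45, adjusted p = 0.012), or 42.4% lower. Without control library 2 it was -0.75 (adjusted p = 0.058), and without control library 3 it was -0.74 (adjusted p = 0.059). The exons of *Mest* share 912 bases with those of *Copg2*, a coatomer gene on the opposite strand, and it is not stated whether the counting used strand. *Copg2* itself fell from 57.7 ± 3.22 to 41.7 ± 5.29 CPM (log2 fold change -0.47, adjusted p = 0.026), and the counts of both genes summed gave -0.68 (adjusted p = 0.012).

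*Ndn* encodes necdin, a MAGE family protein that restrains proliferation, and has a single exon. It lies on the plus strand of chromosome 7, from 62346569 to 62350262 (ENSMUSG00000033585.5). The control libraries had 21.7, 27.1 and 22.8 CPM and the mutant libraries 15.8, 14.5 and 13.7 CPM, so the mutants were close together and all below the controls. The log2 fold change was -0.70 (standard error 0.12, 95% confidence interval -0.98 to -0.43, adjusted p = 0.0082), or 38.6% lower, and it was past the threshold in all 18 alternatives.

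*Plagl1* encodes a zinc finger transcription factor that regulates other imprinted genes. It lies on the plus strand of chromosome 10, from 13060504 to 13131694 (ENSMUSG00000019817.18). It was at 55.0, 65.8 and 70.6 CPM in controls and 45.5, 36.5 and 41.7 CPM in mutant libraries, again with control library 1 nearest to the mutants and mutant library 2 lowest. The change was 35.4% lower, a log2 fold change of -0.63 (standard error 0.13, 95% confidence interval -0.92 to -0.34, adjusted p = 0.014). Without control library 2 the adjusted p was 0.068 (log2 fold change -0.62), and without control library 3 it was 0.074 (-0.56).

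*Dlk1* encodes a membrane-bound and shed EGF-like protein that holds progenitor cells, preadipocytes among them, from differentiating. It lies on the plus strand of chromosome 12, from 109452823 to 109463336 (ENSMUSG00000040856.17). It was at 11.4, 13.7 and 10.7 CPM in controls and 9.22, 7.75 and 5.51 CPM in mutant libraries, and control library 3 and mutant library 1 were close to each other. The log2 fold change was -0.67 (standard error 0.20, 95% confidence interval -1.12 to -0.22), just past the threshold (adjusted p = 0.047), and 8 of 18 alternatives kept it past the threshold. Leaving out control library 1, 2 or 3 or mutant library 2 or 3 gave log2 fold changes of -0.71, -0.56, -0.75, -0.68 and -0.49, with adjusted p from 0.058 to 0.168, and of these 6 repeats only the 1 without mutant library 1 kept the call (adjusted p = 0.040).

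*Grb10* was the sole maternal gene that passed. Its protein binds the insulin and IGF1 receptors and dampens their signal, and its gene lies on the minus strand of chromosome 11, from 11930508 to 12038683 (ENSMUSG00000020176.17). It was at 129, 153 and 156 CPM in controls and 112, 95.2 and 105 CPM in mutant libraries, with no overlap. The log2 fold change of -0.49 (standard error 0.11, 95% confidence interval -0.75 to -0.22, adjusted p = 0.024) was the smallest of the 6, or 28.7% lower. Without control library 2 it was -0.46 (adjusted p = 0.110) and without control library 3 it was -0.45 (adjusted p = 0.114).

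*H19* had the highest level per length of the 10 genes. This noncoding RNA sits next to *Igf2* under a shared control region, and lies on the minus strand of chromosome 7, from 142575529 to 142578143 (ENSMUSG00000000031.16). It was at 419, 265 and 328 CPM in controls and 255, 292 and 247 CPM in mutant libraries, so that mutant library 2 lay above control library 2 and control library 1 was the highest of all. The log2 fold change was -0.35 (standard error 0.17, 95% confidence interval -0.75 to 0.04, adjusted p = 0.171), and it ran from -0.51 without control library 2 to -0.17 without control library 1. *Igf2*, the fetal growth factor expressed from the paternal copy of this locus, was at 338 ± 11.9 CPM in controls and 277 ± 32.2 CPM in mutant libraries (log2 fold change -0.29, adjusted p = 0.114). The ratio of *H19* to *Igf2* within a library was 1.24, 0.816 and 0.941 in controls and 0.814, 1.12 and 0.968 in mutant libraries, and the groups overlapped (exact permutation test, p = 0.9).

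*Meg3*, *Rian* and *Mirg* lie in a row on the plus strand of chromosome 12, from 109541001 to 109571726, from 109603940 to 109661716 and from 109729764 to 109749460 (ENSMUSG00000021268.17, ENSMUSG00000097451.10 and ENSMUSG00000097391.8). They are maternal noncoding RNAs of the domain that also holds *Dlk1*. *Meg3* was at 35.8, 33.7 and 38.3 CPM in controls and 43.5, 141 and 45.3 CPM in mutant libraries. Each mutant library was above the highest control, and mutant library 2 was far above all the rest. The log2 fold change over all libraries was 1.09 (standard error 0.42, 95% confidence interval 0.13 to 2.05, adjusted p = 0.094). Without mutant library 2 it was 0.31 (standard error 0.09, adjusted p = 0.043), a smaller change with a smaller error. Control library 2, which shares its high *Xist* with mutant library 2, had the lowest *Meg3* of all, and any part of sex in these values was not tested. *Meg3* shares sequence with the lincRNA *Gm27000*, which was at 1.89 ± 0.222 CPM in controls and 4.90 ± 2.17 CPM in mutant libraries, and their summed counts gave 1.11 (adjusted p = 0.085).

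*Rian*, which hosts small nucleolar RNAs, had the smallest fold change of the 10 genes. It was at 32.1, 31.1 and 30.9 CPM in controls and 25.2, 34.2 and 31.8 CPM in mutant libraries. Mutant library 1 was the lowest and mutant library 2 the highest, so the controls fell within the range of the mutants. Its log2 fold change was -0.04 (standard error 0.12, 95% confidence interval -0.32 to 0.24, adjusted p = 0.820). The sign turned with an offset for GC content (0.42, adjusted p = 0.072) and without mutant library 1 (0.076, adjusted p = 0.599), and *Rian* has a GC content of 35.8%, the lowest of the 10 genes. *Mirg*, the host of most of the microRNAs, had the lowest level per length of the 10 genes. It was at 1.15, 0.823 and 0.988 CPM in controls and 0.913, 2.43 and 1.56 CPM in mutant libraries. Mutant library 1 lay among the controls, and the log2 fold change was 0.72 (standard error 0.36, 95% confidence interval -0.10 to 1.54, adjusted p = 0.173), or 0.33 without mutant library 2.

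**Figure D2:**
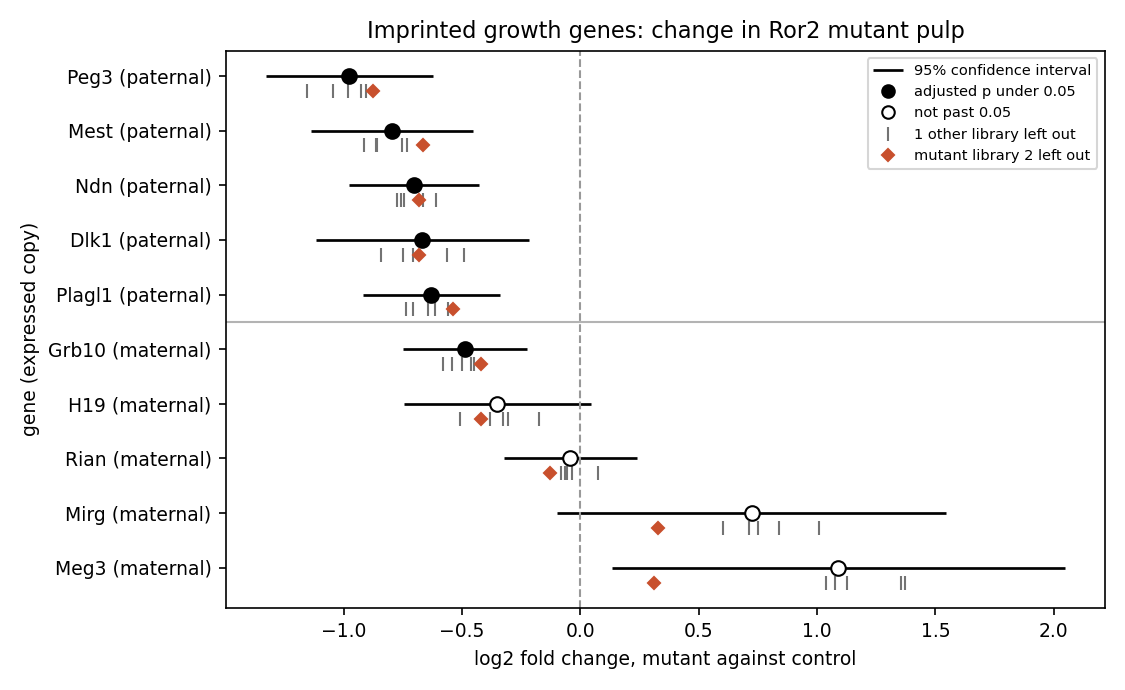
Log2 fold change (mutant against control) of each gene with its 95% confidence interval. Filled points have an adjusted p under 0.05, ticks give the value with 1 library left out, and red diamonds the value without mutant library 2. The 6 filled points lie from -0.98 to -0.49, and leaving out mutant library 2 moves *Meg3* from 1.09 to 0.31.

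The noncoding RNAs of this domain were also compared with each other within each library. The ratio of *Meg3* to *Rian* was 1.12, 1.08 and 1.24 in controls and 1.72, 4.12 and 1.42 in mutant libraries, so every mutant ratio was above every control ratio (exact permutation test, two-sided p = 0.1, the smallest p that 3 against 3 allows). The ratio of *Mirg* to *Rian* was 0.0358, 0.0265 and 0.0320 in controls and 0.0362, 0.0709 and 0.0490 in mutant libraries, also without overlap (exact permutation test, p = 0.1), although the first of the mutants was barely above the highest control. The ratio of *Meg3* to *Mirg* was 31.2, 41.0 and 38.8 in controls and 47.6, 58.1 and 29.1 in mutant libraries, and the groups overlapped (exact permutation test, p = 0.5). The ratio of *Dlk1* to *Meg3*, a paternal gene against a maternal one, was 0.317, 0.405 and 0.278 in controls and 0.212, 0.0550 and 0.122 in mutant libraries, lower in each mutant (exact permutation test, p = 0.1).

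Of the 7 genes of the *Dlk1-Dio3* domain, 2 fell (*Dlk1* and *Dio3*), 0 rose by edgeR or limma voom, 1 rose by DESeq2 and 2 by edgeR at an unadjusted p under 0.05. The lower share by edgeR was 28.6%, against 9.84% over all genes tested. *Dio3*, a deiodinase that inactivates thyroid hormone and is expressed from the paternal copy, lies 738 kb beyond the start of *Meg3*. It was at 26.1, 39.8 and 33.4 CPM in controls and 18.2, 19.1 and 16.9 CPM in mutant libraries, all lower, with a log2 fold change of -0.88 (adjusted p = 0.0094, standard error 0.15). The ratio of *Dio3* to *Dlk1* overlapped between the groups (2.78 ± 0.435 in controls and 2.50 ± 0.547 in mutant libraries, exact permutation test, p = 0.6). The third paternal gene, *Rtl1*, a retrotransposon-derived gene that overlaps microRNA genes on the opposite strand, had 0.275 ± 0.0863 CPM in controls and 0.354 ± 0.204 CPM in mutant libraries (adjusted p = 0.605). *Begain*, at the near edge of the domain, had 3.51, 3.28 and 3.85 CPM in controls and 5.65, 10.9 and 4.37 CPM in mutant libraries (log2 fold change 0.97, adjusted p = 0.060, or 0.51 without mutant library 2).

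**Figure D3:**
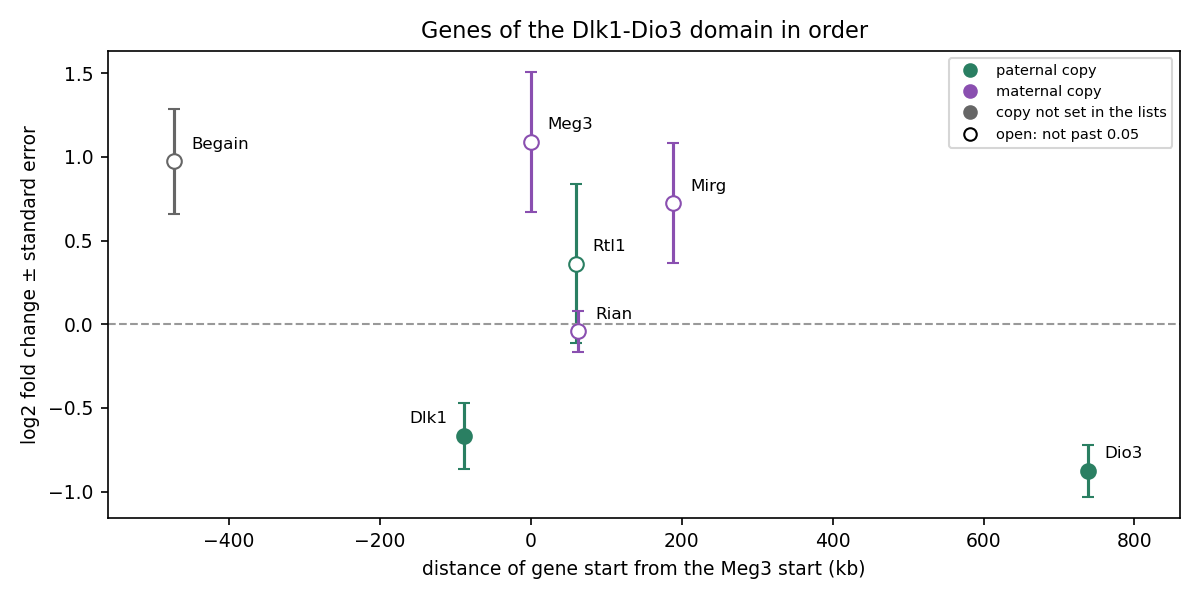
Log2 fold change with its standard error for the 7 genes of the *Dlk1-Dio3* domain, against the distance of each gene's start from that of *Meg3* in kb. Filled points have an adjusted p under 0.05 and colors give the expressed copy (gray for *Begain*, whose copy was not set). *Dlk1* and *Dio3* lie below 0 at the ends of the imprinted stretch, and *Meg3*, *Rtl1* and *Mirg* lie above 0 without passing the threshold.

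In likeness of profile (root mean square difference of log2 CPM over the 6 libraries, after each gene's mean is removed), the gene most like *Meg3* among 19329 others was *Neat1* (0.09), a nuclear lincRNA outside the domain, which was at 36.2, 30.4 and 36.2 CPM in controls and 38.4, 132 and 37.8 CPM in mutant libraries. *Mirg* was ranked 464 by this measure and *Rian* 6246. The profile of *Grb10* was nearest to *Arhgef10* (0.02), with *Plagl1* ranked 109, and that of *Plagl1* was nearest to *Kif26b* (0.05), with *Grb10* ranked 47 and *Mest* 169. For *Dlk1* the nearest member was *Ndn*, ranked 68, for *Ndn* it was *Plagl1*, ranked 175, and for *Peg3* it was *Mest*, ranked 269. These likenesses rest on 6 libraries and are descriptions without a test.

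**Figure D4:**
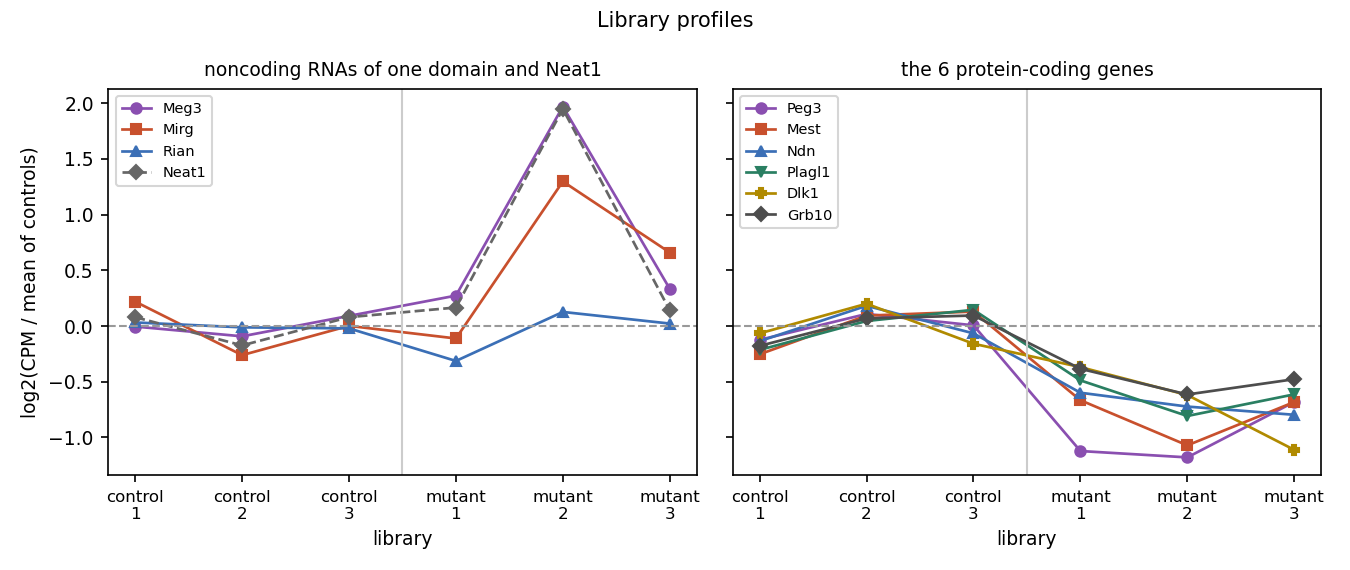
Log2 ratio of each library's CPM to the mean of the controls, for the noncoding RNAs *Meg3*, *Mirg* and *Rian* with *Neat1* (left) and for the 6 protein-coding genes (right). On the left, mutant library 2 is the highest library for *Meg3*, *Mirg*, *Neat1* and *Rian*, with the smallest lead for *Rian*. On the right, every gene is below 0 in all 3 mutant libraries.

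Levels between genes are compared per kb of exon. In control libraries the order was *H19* (137 CPM per kb), *Mest* (31.9), *Peg3* (22.3), *Grb10* (16.0), *Plagl1* (8.16), *Ndn* (6.46), *Dlk1* (2.10), *Meg3* (1.99), *Rian* (1.72) and *Mirg* (0.135). *Plagl1* (7.03 to 9.02) overlapped *Ndn* (5.88 to 7.32) over the control libraries, and *Dlk1* (1.88 to 2.42) overlapped *Meg3* (1.86 to 2.12), whereas the other neighbors in this order did not overlap. In mutant libraries *Grb10* (11.4) and *Peg3* (11.3) were level, *Peg3* having lost more, and *Meg3* (2.40 to 7.79) now lay above *Dlk1* (0.974 to 1.63). By this measure *H19* was at percentile 98.8 of the genes tested and *Mirg* at percentile 9.37.

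Other imprinted genes were described from lists of genes known to be expressed from either copy. Of 42 others tested, 10 were lower (23.8%) and 1 was higher (2.38%), with a median log2 fold change of -0.11. Over all genes tested 9.84% were lower and 10.4% higher. Among the 23 tested paternal genes 4 were lower and 0 higher by edgeR or limma voom (17.4% lower, median -0.09), and 1 was higher by DESeq2 and 1 by edgeR at an unadjusted p under 0.05. The 3 with the smallest p were *Peg10*, a retrotransposon-derived placental gene (14.5 ± 2.04 to 7.13 ± 1.20 CPM, log2 fold change -1.02, adjusted p = 0.0065), *Dio3*, and *Sgce*, a sarcoglycan next to *Peg10* (20.5 ± 1.55 to 14.9 ± 1.11 CPM, -0.46, adjusted p = 0.025). Among the 19 tested maternal genes 6 were lower and 1 was higher (31.6% lower, median -0.27). These included *Zim1*, a zinc finger gene 32.6 kb from *Peg3* (17.1 ± 0.579 to 8.40 ± 0.952 CPM, log2 fold change -1.02, adjusted p = 0.0017), *Cdkn1c*, the cell cycle inhibitor p57 (152 ± 1.68 to 101 ± 10.1 CPM, -0.58, adjusted p = 0.0098), and *Ube3a*, a ubiquitin ligase imprinted in neurons (110 ± 19.2 to 61.1 ± 11.3 CPM, -0.84, adjusted p = 0.016). Thus the lower calls outside the 10 genes were not limited to genes listed as paternal. Which copy these genes express in dental pulp was not measured. *Zim1*, *Peg10* and *Dio3* stayed past the threshold with any 1 library left out, while *Sgce*, *Cdkn1c* and *Ube3a* did not pass without control library 2 or 3 (highest adjusted p = 0.126, 0.054 and 0.071).

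**Figure D5:**
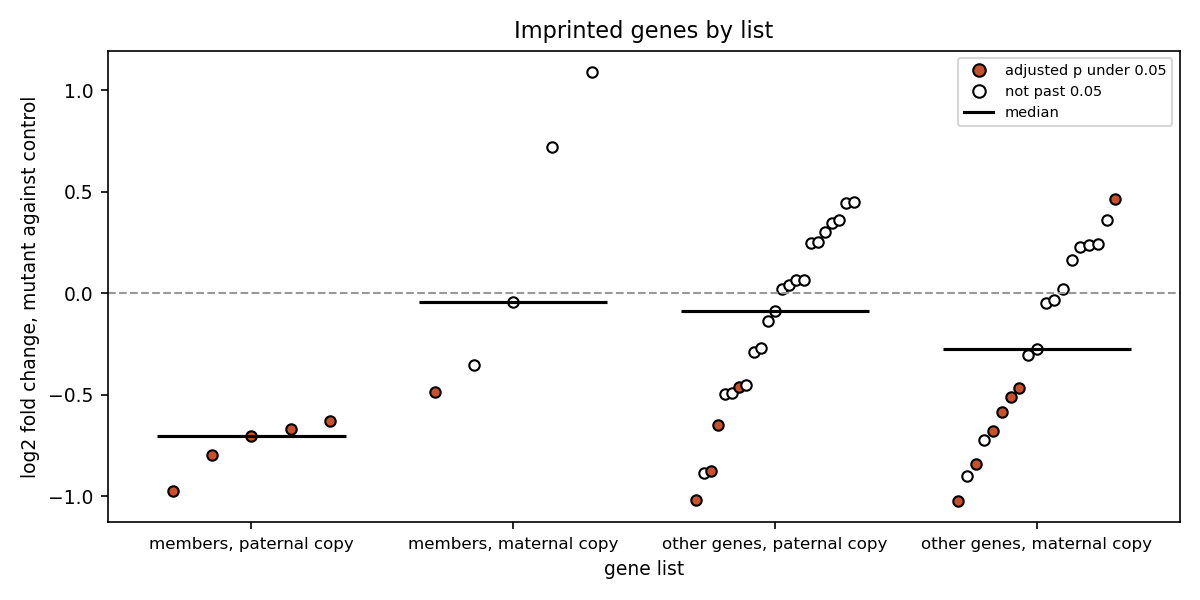
Log2 fold change of the imprinted genes tested, by list. Filled points have an adjusted p under 0.05, and bars are medians. The 5 paternal members lie between -0.98 and -0.63, and the other imprinted genes of both copies spread on both sides of 0 with medians of -0.09 (paternal) and -0.27 (maternal).

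Genes near each member were also counted. Within 500 kb of a member's start, 60 genes other than members were tested, of which 8 (13.3%) were lower and 2 (3.33%) higher, against 9.84% lower and 10.4% higher over all genes tested. *Zim1* was next to *Peg3*, *Copg2* and *Cep41* (8.30 ± 0.966 to 4.70 ± 1.26 CPM, a ciliary protein gene) near *Mest*, *Fignl1* (3.39 ± 0.144 to 1.87 ± 0.451 CPM) near *Grb10*, and *Adat2* (2.16 ± 0.167 to 3.66 ± 0.398 CPM, higher) near *Plagl1*. Near *H19* the lower genes were *Tnnt3* (1.64 ± 0.581 to 0.394 ± 0.142 CPM, adjusted p = 0.012) and *Tnni2* (0.960 ± 0.456 to 0.313 ± 0.0663 CPM, adjusted p = 0.038), troponins of fast skeletal muscle, and *Tssc4* was higher (17.5 ± 1.58 to 24.2 ± 3.87 CPM, adjusted p = 0.046). The lower genes *Gm49369* and *Gm49394* there, counted among the 8, share all their exon bases with other genes and are uncertain. *Copg2* (17.8%), *Adat2* (17.0%) and *Tssc4* (11.9%) share part of theirs. With each library left out in turn, *Zim1* passed in 6 of 6 fits, *Tnnt3* in 5 (not without control library 2, adjusted p = 0.057), *Copg2*, *Cep41*, *Fignl1* and *Adat2* in 2, and *Tnni2* and *Tssc4* in 1. Of the 4 that passed in 2, none did so without control library 2, control library 3 or mutant library 1 (highest adjusted p from 0.093 to 0.116). *Tnni2* passed only without control library 3 (otherwise up to 0.154), and *Tssc4* only without mutant library 3 (otherwise up to 0.184). Near *Ndn* 3 genes were tested and 0 passed by edgeR, the nearest to the threshold being *Peg12* (4.69 ± 0.438 to 3.33 ± 0.357 CPM, log2 fold change -0.50, adjusted p = 0.059).

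Some markers of other cells differed between the genotypes. Of 10 skeletal muscle markers 6 were lower in mutant libraries, and their summed level was 12.1 to 38.5 CPM in controls and 4.45 to 5.16 CPM in mutant libraries, while the defining regulators *Myod1* and *Myog* were at or below 0.172 CPM in all 6 libraries. Of 5 cartilage markers 3 were lower (sums of 103 to 136 CPM in controls and 100 to 111 CPM in mutant libraries). Of 5 red blood cell markers 2 were lower (782 to 1318 and 243 to 932 CPM). Of 6 macrophage and leukocyte markers 2 were lower (82.3 to 102 and 70.2 to 90.9 CPM), and the rest overlapped between the groups. Of 8 dental mesenchyme markers 2, *Msx2* and *Dlx2*, were higher (449 to 514 and 540 to 603 CPM). The rest overlapped without passing, with means higher in mutant libraries for *Dlx1* and *Lhx6* and lower for *Msx1*, *Pax9*, *Barx1* and *Lhx8*. Sums of cartilage, red blood cell, and macrophage and leukocyte markers overlapped between the groups. So did those of endothelial, pericyte and smooth muscle, nerve and bone markers. The part of these cell types in the changes of the 10 genes was not tested.

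Genes that work with the members were read from lists as well. Of 14 listed genes linked to imprints or DNA methylation, not all of which maintain imprints, 12 were tested. By edgeR or limma voom 3 were lower and 0 higher, against 1 higher by DESeq2 and 1 by edgeR at an unadjusted p under 0.05. The lower share by edgeR was 25.0%, against 9.84% over all genes tested. *Tet1*, which oxidizes 5-methylcytosine, went from 32.4 ± 4.02 to 17.5 ± 5.30 CPM (log2 fold change -0.88, adjusted p = 0.025), *Smchd1*, a chromatin protein of silenced loci, from 66.4 ± 6.78 to 42.3 ± 9.51 CPM (-0.65, adjusted p = 0.030), and the methyltransferase *Dnmt3a* from 133 ± 14.7 to 87.5 ± 21.7 CPM (-0.60, adjusted p = 0.048, or 0.070 without mutant library 2). *Trim28*, *Zfp57* and *Zfp445*, which hold methylation at imprinted regions, did not pass. With 1 library left out, *Dnmt3a* passed only without mutant library 3. All 3 calls were lost when control library 2, control library 3 or mutant library 1 was left out (highest adjusted p = 0.096 for *Tet1*, 0.114 for *Smchd1* and 0.164 for *Dnmt3a*).

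Around *Grb10*, 10 of the 11 listed genes of insulin and IGF1 receptor signaling were tested, with 2 lower and 2 higher. *Igf1*, the ligand, went from 166 ± 33.7 to 102 ± 11.9 CPM (log2 fold change -0.70, adjusted p = 0.024). *Gigyf1*, which binds Grb10 protein, was at 27.5, 31.2 and 33.5 CPM in controls and 56.6, 104 and 45.1 CPM in mutant libraries, higher in all 3 (log2 fold change 1.16, adjusted p = 0.025, and 0.74 without mutant library 2, adjusted p = 0.010). The related adaptors *Grb14* (19.6 ± 5.77 to 11.9 ± 1.23 CPM, -0.72, adjusted p = 0.045) and *Grb7* (4.31 ± 0.505 to 6.30 ± 0.818 CPM, 0.55, adjusted p = 0.047) were near the threshold and moved in opposite directions. With a library left out, *Igf1* did not pass without control library 2 or 3 or mutant library 1 (highest adjusted p = 0.099), *Gigyf1* without any of the controls (highest 0.092), *Grb14* unless it was control library 1 (highest 0.157) and *Grb7* unless it was mutant library 1 (highest 0.184). The receptors *Igf1r* and *Insr* did not pass (adjusted p = 0.199 and 0.454). Among 8 tested genes that share a family with a member, *Grb14* was lower and *Grb7* higher (12.5% each). The MAGE gene *Maged2*, related to *Ndn*, was at 155, 162 and 154 CPM in controls and 132, 127 and 125 CPM in mutants (log2 fold change -0.30, adjusted p = 0.052).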

How the data were processed

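The 6 libraries of RNA from mandibular first molar pulp were grouped by the genotype in the sample labels. The authors deposited estimated counts per gene, which need not be whole (47.8% of the values were), and a normalized signal table of 22061 genes, in which each value is the count plus 1 multiplied by a factor per library. The methods name single-end reads of 75 cycles, TopHat 2 and the mm10 genome, whereas the submitters' processing notes list STAR 2.6.1d and Partek with mm10. The handling of strand and of reads that fit several genes is not given in the sources used here, so overlapping genes may share reads. The table holds 6 further columns of other samples, which were not used.

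Counts were rounded, scaled by TMM and filtered with filterByExpr in edgeR 4.0.16 (R 4.3.3), and groups were compared with its quasi-likelihood test without a block. The design had assumed whole counts. P-values were adjusted by the Benjamini-Hochberg method over 19330 genes, with a threshold of 0.05. The common biological coefficient of variation was 18.7%. Ratios within a library were compared by two-sided exact permutation tests of log2 ratios, whose smallest p is 0.1. CPM are TMM-scaled, and fold changes are those of the fit. Same-group libraries differed by more than sampling noise. All 27506 genes were matched to GENCODE M21 on mm10, which gave positions and exon lengths, and promoter and microRNA sequences are from RefSeq (GRCm38.p6). Genes count as sharing sequence when at least 20 stretches of 75 bases are shared.

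Alternatives were DESeq2 1.42.0, limma 3.58.1 (voom, and limma-trend on log2 of the deposited signal after adding 1 or 0.1), DESeq2 size factors, library totals, other filters (none, or a mean of at least 50 counts), offsets for GC content and length, the replicate number as a block, leaving out each library, and summing genes that share sequence or exons. The 10 genes and the gene lists were chosen with earlier results of these data known. Named besides the 10 are the 3 genes of each list with the smallest p, the genes of the *Dlk1-Dio3* domain, genes within 500 kb of a member with an adjusted p under 0.05, the genes of most like profile, and *Ror2*. *Igf2*, *Gm27000*, *Peg12*, *Trim28*, *Zfp57*, *Zfp445*, *Igf1r*, *Insr*, *Myod1*, *Myog*, *Amelx*, *Enam*, *Ambn* and *Xist* were added after their values were seen. So were the dental mesenchyme markers *Msx1*, *Msx2*, *Pax9*, *Barx1*, *Lhx6*, *Lhx8*, *Dlx1* and *Dlx2*.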

Additional observations from a re-analysis of the deposited data

How the results depend on the processing

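Of the 10 genes, 6 were lower, and this count was 4 to 7 over the alternatives that kept all libraries. It was 2 to 6 with a library left out, with 2 (*Peg3* and *Ndn*) without control library 2 or 3. Over all genes these repeats called 478 higher and 432 lower, and 458 and 414, against 2003 and 1903, and 1275 and 1129 without mutant library 1. The number of the 10 genes that were higher was 0 to 1 with a library left out, and the number with mutant libraries all above controls went from 1 to 2 with an offset for GC content, or for GC content and length. *Rian* turned to 0.42 with the GC offset, and 0.65 with GC content and length, and ran from -0.13 to 0.076 with a library left out. For all of these the cause was not tested. With the replicate block, 4 of the 10 genes were lower, since *Grb10* (adjusted p = 0.071) and *Dlk1* (adjusted p = 0.051) no longer passed, and 1012 genes were called higher and 1001 lower in all. Same-numbered libraries did not deviate together (correlations of -0.10, -0.08 and -0.004), and no control library correlated best with the mutant library of its own number. With 3 libraries a group, these correlations cannot settle whether the numbers pair the samples. *H19* passed only with the offset for GC content and length (-0.56, adjusted p = 0.036). Lower calls in the *Dlk1-Dio3* domain were 1 in place of 2 with no filter, a mean of at least 50 counts, limma-trend (both pseudocounts) and the replicate block (1 to 2 with a library left out), and higher calls were 1 with DESeq2 (0 to 1). Other paternal genes had 2 lower with the block (2 to 5 with a library left out), and 1 higher with DESeq2 and 2 with either offset (0 to 1). Other maternal genes had 3 lower with the block and either offset (1 to 7), and 0 higher with voom, library totals, no filter, limma-trend, the block and either offset (0 to 2). Genes linked to imprints or DNA methylation had 0 to 4 lower with a library left out, and 1 higher with DESeq2, a mean of at least 50 counts and either offset (0 to 1). Insulin and IGF1 signaling had 1 lower with limma-trend and the block and 0 with either offset (0 to 2), and 1 higher with voom, library totals, no filter, limma-trend, the block and either offset (0 to 2). Family genes had 2 lower with DESeq2 and 0 with limma-trend and the block (0 to 1), and 0 higher with voom, library totals, no filter, limma-trend, the block and either offset (0 to 1). With 3 libraries a group and 48 to 27008 counts, *Mirg* has the least depth.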
